A study of Mus musculus with 56 samples.

Results

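Of the 56 single-cell libraries in the series, 33 made up the comparison described here: 15 wells in which Cga reached at least 1000 CPM and 18 wells in which it stayed under 20 CPM. CPM, a normalised read count, is the count of a gene divided by the total over all mouse genes in that well, times 1000000. Both limits were applied to the 46 wells that held at least 100000 gene counts. Another 13 wells lay between the limits, and 10 wells were under the minimum of gene counts. The first group is called Cga-high and the second Cga-low. Since Cga itself chose the wells, its own level is a description and carries no test.

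All wells came from female C57BL/6 mice of 10 to 12 weeks that were cycling at random, and no treatment is listed for them. The study's supplement describes pituitary cultures used for single-cell qPCR as treated with gonadotropin-releasing hormone. Whether the sequenced cells received it is not stated there. The pituitaries of 5 mice were pooled, and the dissociated cells were cultured for 4 days. The cells were then trypsinized, stabilized in RNA-Best, filtered and captured on a microfluidic C1 chip for small cells. Full-length cDNA was made with the SMART-Seq v4 chemistry and turned into Nextera libraries. The labels put every well in 1 group, so the Cga-high and Cga-low wells are cells of the same pool and not animals. Differences are therefore given with the standard deviation (SD) over wells, with no p-value.

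Cga encodes the alpha subunit that luteinizing hormone (LH), follicle-stimulating hormone (FSH) and thyroid-stimulating hormone (TSH) share, and the beta subunits encoded by Lhb, Fshb and Tshb give each hormone its identity. Gonadotropes make LH and FSH and respond to gonadotropin-releasing hormone through its receptor, Gnrhr, whereas thyrotropes make TSH. The alpha subunit is made early in pituitary development and in excess of the beta subunits, so a cell can hold Cga without holding a complete hormone.

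In the mouse genome (mm10), Cga (ENSMUSG00000028298.10) spans chr4:34893779-34907370 on the plus strand and Lhb (ENSMUSG00000100916.1) spans chr7:45420820-45421897 on the plus strand. The 250 bases before the RefSeq start of each gene (GRCm38.p6; chr4:34893529-34893778 and chr7:45420696-45420945) are shown because the wells were sorted by the first gene and differed most in the second. Capitals mark matches on either strand to the letters searched, apart from TATAAA, which was left in lower case.
Cga promoter: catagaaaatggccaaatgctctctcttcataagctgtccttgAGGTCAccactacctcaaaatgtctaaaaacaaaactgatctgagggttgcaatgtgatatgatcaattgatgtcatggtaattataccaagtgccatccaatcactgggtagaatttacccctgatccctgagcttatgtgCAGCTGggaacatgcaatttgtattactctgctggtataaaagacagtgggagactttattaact
Lhb promoter: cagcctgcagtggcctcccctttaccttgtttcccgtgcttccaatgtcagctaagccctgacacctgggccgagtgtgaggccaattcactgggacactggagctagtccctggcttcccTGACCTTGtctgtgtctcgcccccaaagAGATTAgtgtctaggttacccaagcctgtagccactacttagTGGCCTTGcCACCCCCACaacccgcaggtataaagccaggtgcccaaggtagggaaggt

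Counted back from the RefSeq start, the Lhb window held TGACCTTG, letters bound by the nuclear receptor NR5A1 (SF-1), at -129 and the close relative TGGCCTTG at -59. It also held AGATTA, which contains the GATTA core of PITX homeobox proteins, at -101 and CACCCCCAC, letters bound by EGR1, at -50. Among 32851 promoter windows of this length, TGACCTTG was present in 1.33%, TGGCCTTG in 1.99%, AGATTA in 7.31% and CACCCCCAC in 1.80%. The Cga window held none of these 4 strings, but held the nuclear receptor core AGGTCA at -207 (present in 14.0% of windows; in the Lhb window the only AGGTCA overlaps TGACCTTG on the other strand) and the E-box CAGCTG at -65 (present in 13.0%). GGATTA was found in neither window, nor was the GATA-type string TGATAA, nor the cyclic AMP response element TGACGTCA. TATAAA, the letters of the TATA box, was at -30 in the Cga window and -31 in the Lhb window and was present in 12.4% of all windows. AGATTA was searched as the homeodomain core of the Lhb promoter, so its presence in that window was given by the choice. Only the strings named were searched, so a window without a string may still hold a relative of it. Such matches describe letters and not occupied sites.

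Cga in the 15 Cga-high wells ran from 1052 CPM in well D3 to 57530 CPM in well E3, with a median of 3889 CPM. Well H2 followed E3 with 41215 CPM, and wells G7, A2 and A10 held 11038, 9566 and 9068 CPM. In the 18 Cga-low wells the median was 2.81 CPM and the highest value 18.0 CPM, in well C2. The nearest wells outside the limits were H11 at 640 CPM below the upper one and B12 at 28.0 CPM above the lower one. The overlapping antisense transcript Platr9 reached at most 30.5 CPM in a Cga-high well, H2, beside 41215 CPM of Cga.

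**Figure D1:**
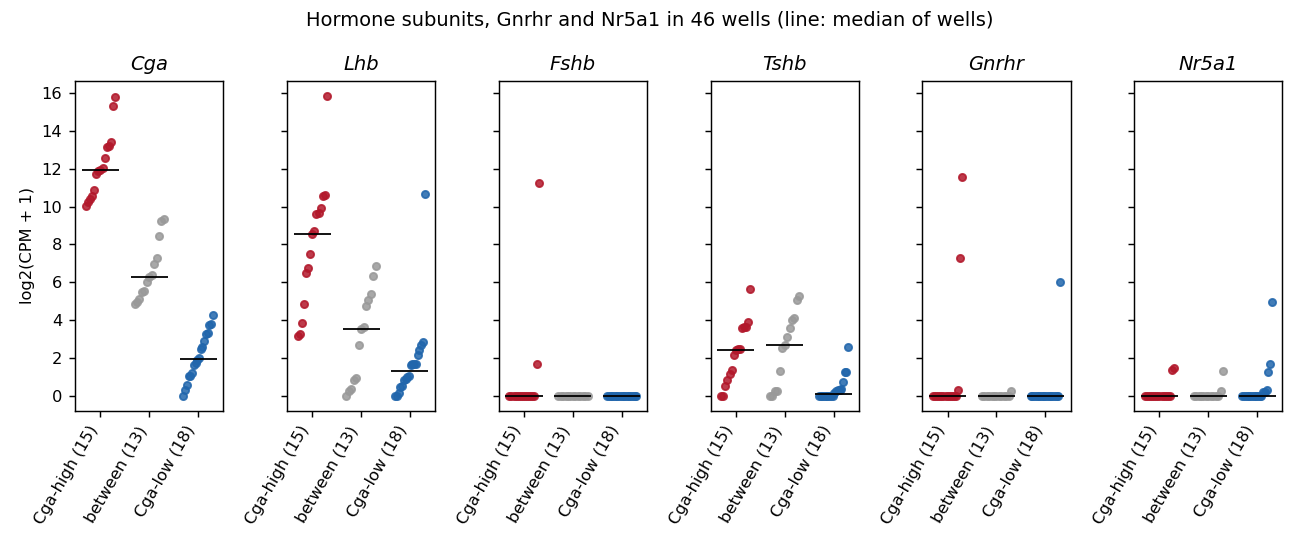
Each point is a well, the vertical axis is log2(CPM + 1), the horizontal position separates the 15 Cga-high, 13 between and 18 Cga-low wells, and the line is the median of the wells. Lhb followed the sides apart from F4 among the Cga-low wells, Fshb and Gnrhr were present in a few single wells, and Tshb stayed low in every group.

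The Cga-high and Cga-low wells differed in more than Cga. Gene counts per well had a median of 447616 (111195 to 12563266) in Cga-high wells and 4099281 (234987 to 10664342) in Cga-low wells, and the spike-in share of counts had medians of 16.7% and 0.514%. Genes with at least 1 count had medians of 7384 and 8400. Of the Cga-high wells, 14 of 15 stood in plate columns 1 to 3 and 7 to 9 (93.3%, exact 95% binomial interval 68.1 to 99.8%, counting error only), against 8 of 18 Cga-low wells (44.4%, 21.5 to 69.2%). Over the 46 wells, Cga CPM had a Spearman coefficient of -0.47 with gene counts, 0.52 with the spike-in share and 0.59 with the mitochondrial share of counts. The part of depth, spike-in share, mitochondrial share and plate position in the differences was not tested. Differences within columns 1 to 3 and 7 to 9, called the shared columns (14 wells against 8), are therefore printed beside the overall ones for the leading genes and where the sign differs there, since the other columns held 1 Cga-high well, A10. Wells C10 and C11, both Cga-low, had close to identical gene values (median absolute log2 ratio 0.14 over 951 genes), and both were kept.

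**Figure D2:**
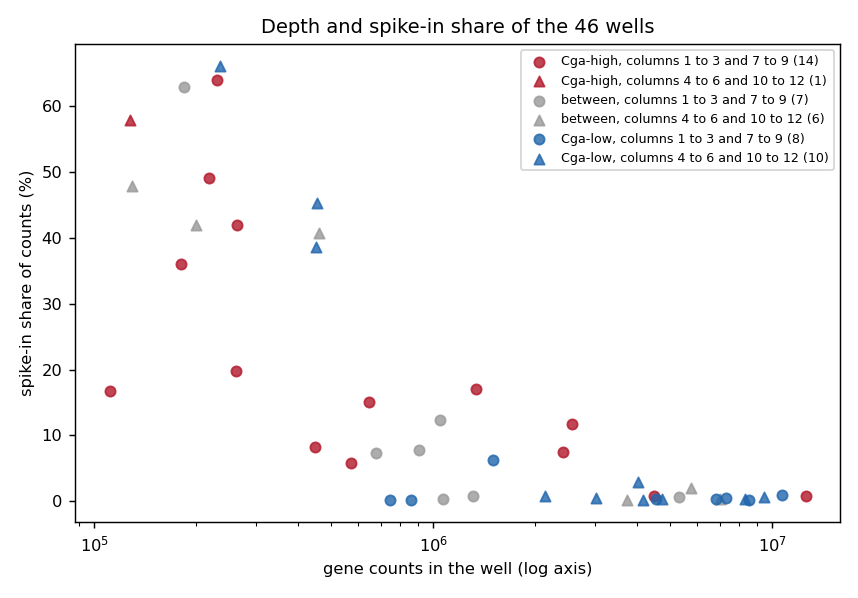
Each point is 1 of the 46 wells, with gene counts on a log axis, the spike-in share of counts in percent, colour for the side of the Cga rule and shape for the set of plate columns. The Cga-high wells sat at fewer gene counts (median 447616 against 4099281) and, A10 apart, in columns 1 to 3 and 7 to 9.

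Every Cga-high well held Lhb, the beta subunit of LH. The level was 59401 CPM in E3, 1584 CPM in H7, 1490 CPM in G7, 988 CPM in A9, 805 CPM in A1, 783 CPM in H3, 425 CPM in A8, 378 CPM in H2, 177 CPM in F3 and 108 CPM in E7. The remaining 5 wells held 88.0 CPM (D3), 27.9 CPM (C7), 13.4 CPM (B3), 8.71 CPM (A2) and 7.84 CPM (A10), the last 2 values resting on 2 counts and 1 count. In the Cga-low wells Lhb had a median of 1.56 CPM, and 17 of 18 wells were at or under 6.01 CPM. The exception was F4, at 1643 CPM. Ruvbl2 overlaps the end of Lhb on the other strand and was at 7.72 CPM in E3 and 117 CPM in F4. Whether counting used the strand is not given in the sources used here.

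The mean of log2(CPM + 1) for Lhb was 7.96 ± 3.40 (SD, n = 15) in Cga-high wells and 1.79 ± 2.39 (SD, n = 18) in Cga-low wells, a difference of 6.17. It was 6.75 within columns 1 to 3 and 7 to 9, 6.66 after every well was thinned to 100000 counts, and 5.61 without E3. This was the largest difference after Cga among the 7611 genes with a mean of at least 10 CPM over the 33 wells. Cga was the only gene in which every Cga-high well lay above every Cga-low well (0.0131% of genes), and no gene showed the opposite. When F4 was left out, a choice made after its value was seen, Lhb joined Cga (0.0263% of genes) and its difference became 6.70. That separation is near the floor: the 2 lowest Cga-high values, 7.84 CPM in A10 and 8.71 CPM in A2, rest on 1 count and 2 counts. The highest Cga-low value besides F4, 6.01 CPM in C2, rests on 9 counts. After thinning to 100000 counts, Lhb was present in 14 of 15 Cga-high and 4 of 18 Cga-low wells.

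Of the 7611 genes, 100 (1.31%) were higher in Cga-high wells by 2 or more on this log2 scale and 771 (10.1%) were lower by 2 or more. The median over all of them was -0.63, so most genes leaned to the Cga-low side, and it was -0.32 within columns 1 to 3 and 7 to 9. In those columns 145 (1.91%) and 591 (7.77%) of the same genes passed the limit. All 100 and all 771 kept their direction there, and 76 and 370 of them also passed the limit. Under TMM scaling, which sets libraries to a common middle, the median was -0.22. The counts over all 33 wells were then 192 and 338 of the 7205 genes kept on that scaling. The wells within those columns are part of the 33, so this is not an independent check, and a gene that is very high in a single well can pass the mean of 10 CPM.

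**Figure D3:**
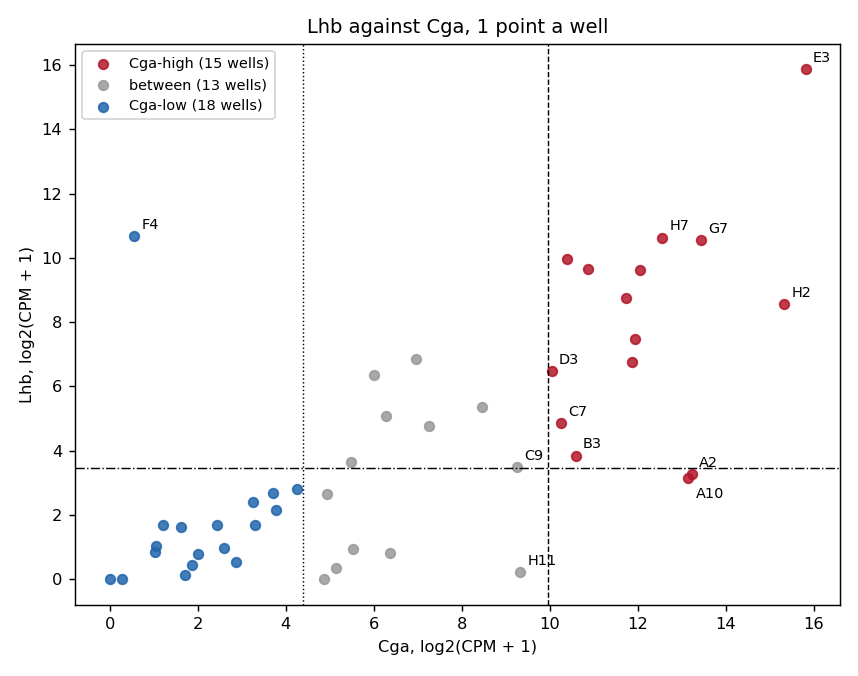
Each point is 1 of the 46 wells, with Cga and Lhb as log2(CPM + 1). The dashed and dotted vertical lines are the limits of 1000 and 20 CPM of Cga, and the horizontal line is 10 CPM of Lhb. E3 stood highest for both genes, A2 and A10 had Cga at 9566 and 9068 CPM with Lhb under the line, and F4 had Lhb at 1643 CPM with Cga at the bottom.

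Levels of different genes were compared per length of exon, as counts per exon length scaled to a sum of 1000000 a well (TPM). Lhb as a percentage of Cga in the same Cga-high well had a median of 11.8% and ran from 0.122% to 145%. Lhb exceeded Cga in 2 wells, E3 (108286 against 74534 TPM) and A9 (2015 against 1942 TPM). Cga led Lhb in the other 13 wells, and Lhb was the smallest percentage of Cga in A2 (13752 against 17.6 TPM) and A10 (12763 against 15.5 TPM). By CPM, no Cga-high well was led by a gonadotropin subunit among the pituitary hormones: Prl, encoding prolactin, led in 14 and Pomc, the precursor of corticotropin, led in H2. Per length, Gh led instead of Prl in 1 of those 14, E7 (145325 against 113365 TPM). The lowest Prl value in any of the 46 wells was 1216 CPM, in a Cga-low well led by Pomc.

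Fshb, the beta subunit of FSH, was at 2464 CPM (1596 counts) in E3 and at 2.23 CPM (1 count) in B3. The other 13 Cga-high wells and all 18 Cga-low wells held no Fshb count. A count of 0 in 18 wells allows a share of up to 16.7% of wells with Fshb at 1 CPM. In E3 there were 4.15 Fshb counts and 5.15 Gnrhr counts for every 100 Lhb counts. Scaled by that ratio, the 18755 Lhb counts of the other 14 Cga-high wells correspond to 778 Fshb counts, and 1 was found. In G7 alone the ratio gives 277 Fshb counts and 344 Gnrhr counts, against 0 and 1 found. The ratio of 1 well need not hold in others: Gnrhr counts for every 100 Lhb counts were 40.8 in H2 and 3.88 in F4. The scaled values are a yardstick and not an expectation.

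Gnrhr, the receptor that makes a gonadotrope responsive to the hypothalamus, was at 3060 CPM in E3 and 154 CPM in H2. G7 held 1 count (0.22 CPM), and the other 12 Cga-high wells held none. Among the Cga-low wells Gnrhr was at 63.8 CPM in F4 and at 0 in the other 17. The difference of mean log2(CPM + 1), 0.94, therefore rests on a few wells. H2 carried 40.8 Gnrhr counts for every 100 Lhb counts and no Fshb, so E3 and H2 differed in this ratio as well as in level.

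Tshb, the beta subunit of TSH, was low throughout. In Cga-high wells it was highest in H2 (49.8 CPM, 626 counts), then 13.9 CPM in E3, 11.5 CPM in D3, 11.4 CPM in A8 and 11.1 CPM in F3, values of 9, 3, 3 and 2 counts. It reached 1 CPM in 11 of 15 Cga-high wells (73.3%, exact interval 44.9 to 92.2%), in 9 of 13 wells between the limits (69.2%) and in 3 of 18 Cga-low wells (16.7%, 3.58 to 41.4%). A single count passes that limit in wells under 1000000 counts, which were 10 of 15 Cga-high and 5 of 18 Cga-low wells. No Tshb count was found in 2 Cga-high and 9 Cga-low wells. After thinning to 100000 counts, Tshb was present in 5 of 15 Cga-high, 7 of 13 between and 0 of 18 Cga-low wells. The Cga-low maximum was 4.94 CPM, in A7. Per length, the highest Tshb value of a Cga-high well was 18.3 TPM beside 72426 TPM of Cga in the same well. Tspan2, which spans Tshb on the other strand, was at 935 CPM in E3 and 0.24 CPM or less in H2 and G7.

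Sorted by the rule, 13 of the 15 Cga-high wells carried Lhb, Gnrhr or Tshb at 10 CPM or more (86.7%, exact interval 59.5 to 98.3%) and 2, A2 and A10, had Cga alone. All 13 carried Lhb at that level, 5 carried Tshb and 2 carried Gnrhr. The same limit was met by 9 of 13 wells between the limits (69.2%, 38.6 to 90.9%) and by 1 of 18 Cga-low wells (5.56%, 0.141 to 27.3%), F4. At 1 CPM all 15 Cga-high wells were carriers, which leaves no well with Cga alone. At 100 CPM 10 were carriers and B3, C7 and D3 joined A2 and A10. After thinning to 100000 counts, 14 of 15 Cga-high, 8 of 13 between and 4 of 18 Cga-low wells held at least 1 count of the 3 genes.

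The wells with Cga alone were not low in Cga, at 9566 CPM in A2 and 9068 CPM in A10 against a median of 3732 CPM over the 13 carriers. They were low in depth: 229665 and 127487 gene counts, with spike-in shares of 64.0% and 58.0%, where the carriers had medians of 572863 counts and 15.1%. At that depth 10 CPM corresponds to 3 counts in A2 and to 2 in A10. Across 6233 genes with a mean of at least 10 CPM over the Cga-high wells, 1360 (21.8%) were higher in carriers by 2 or more and 109 (1.75%) were lower. Without A2 the counts were 2336 and 336, with A10 as the only well with Cga alone.

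With 2 wells on one side, many of those differences come from a single well. Cyp2f2, a cytochrome P450, was at 26077 CPM (5989 counts) in A2, at 0 in A10 and under 1 CPM in all 13 carriers. Blvrb, biliverdin reductase B, was at 49895 CPM in A10 and 8.71 CPM in A2, with a carrier median of 3.80 CPM. Psmb8, an immunoproteasome subunit, was at 22398 CPM in A2 and 15.7 CPM in A10, with a carrier median of 7.65 CPM. Lhb, which defined the split, differed by 5.48. Chmp3, a subunit of the membrane-remodelling ESCRT-III complex, and Ndufc1, a subunit of respiratory complex I, were detected in all 13 carriers, at medians of 45.0 and 49.8 CPM, and at 0 in both A2 and A10. At the limit of 100 CPM the differences of these 2 genes were 3.24 and 1.16.

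Markers of the gonadotrope beyond the hormone genes were mostly absent. Of 12 such markers, Lhb, Fshb and Gnrhr passed the mean of 10 CPM, and Lhb alone differed by 2 or more. Nr5a1, the nuclear receptor that drives gonadotrope genes, was at 1.75 CPM in C7 and 1.54 CPM in E3 and at 0 in the other 13 Cga-high wells. Its highest value was 30.0 CPM in F4, a Cga-low well. Foxl2, a forkhead factor of Fshb transcription, appeared in H3 alone at 2.72 CPM, and Nr0b1 was at 0 in every well of both sides. Isl1, a LIM homeobox gene of the gonadotrope and thyrotrope lineages, reached 187 CPM in H2 and 15.8 CPM in G7, and Otx1, an orthodenticle homeobox gene, 134 CPM in B3. The summed CPM of the 12 markers ran from 7.84 to 64926 (median 425) in Cga-high wells and from 0 to 1780 (median 1.62) in Cga-low wells, and Lhb made up most of it.

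Well by well, E3 was the one library that held Cga, Lhb, Fshb and Gnrhr together. It had 647814 gene counts, and spike-ins took 15.1% of all counts. It also held Prl at 131748 CPM, Gh at 71095 CPM and Pomc at 13807 CPM. H2, the deepest library at 12563266 gene counts, held Cga at 41215 CPM with Pomc at 59274 CPM, Gnrhr, Isl1, Tshb at 49.8 CPM and Dio2, the deiodinase that activates thyroid hormone, at 250 CPM. G7, with 4485894 gene counts, held Cga at 11038 CPM and Lhb at 1490 CPM, together with Prl at 366756 CPM and Pou1f1, the factor of the prolactin, growth hormone and TSH lineages, at 309 CPM. F4 was the reverse of A2 and A10, with Lhb at 1643 CPM, Gnrhr at 63.8 CPM and Nr5a1 at 30.0 CPM over a Cga value of 0.47 CPM, which is 1 count of 2133329. F4 also held Tgfbr3l, the inhibin B co-receptor of gonadotropes, at 43.1 CPM, where all other wells of both sides were at 0.

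Thyrotrope markers did not separate the sides as a list. Of 7 markers, Dio2, Thrb and Pou1f1 passed the mean of 10 CPM. Dio2 was detected in 9 of 15 Cga-high wells, at 250 CPM in H2, 143 CPM in A1, 78.2 CPM in B3 and 44.3 CPM in F3, and in 1 of 18 Cga-low wells, E9, at 321 CPM. Its difference was 2.07 overall and 1.67 within columns 1 to 3 and 7 to 9. Pou1f1 differed by 0.10 (-0.04 within the shared columns) and Thrb, a thyroid hormone receptor, by -1.12. The receptor for thyrotropin-releasing hormone, Trhr, was at 0 in all wells of both sides.

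The hormone genes of other cell types were present on both sides. Pomc had a median of 9584 CPM (2207 to 73004) in Cga-high wells and 1262 CPM in Cga-low wells, with a difference of 2.58 overall and 2.00 within the shared columns. Gh, encoding growth hormone, had medians of 11278 and 1628 CPM and differences of 1.88 and 2.57. Prl had medians of 227032 and 233099 CPM, and its difference was 0.83 overall and -1.08 within the columns. The low-side ranges of Gh and Pomc reached 202245 and 180795 CPM, so the sides overlapped for all 3 genes. Gh had a Spearman coefficient of -0.73 with gene counts over the 46 wells. Whether a well held more than 1 cell, or RNA of other cells, was not tested here.

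Beyond the subunits, the protein-coding genes with the largest positive differences included 3 chemokines. Cxcl1, a neutrophil attractant, was detected in all 15 Cga-high wells, with a median of 46.9 CPM and its highest values in H3 (3618 CPM) and H7 (2585 CPM). It was detected in 7 of 18 Cga-low wells, at most at 87.3 CPM in E9. Ccl2, a monocyte attractant, was likewise highest in H7 (7266 CPM) and H3 (3650 CPM), with a Cga-high median of 64.0 CPM and a Cga-low maximum of 257 CPM in H9. Ccl5, a T-cell attractant, was highest in E3 (2678 CPM) and E7 (2473 CPM) and was detected in 13 of 15 and 4 of 18 wells. Among the wells between the limits, C8, with Cga at 44.8 CPM, held Cxcl1 at 5296 CPM, above every Cga-high well, and Ccl2 at 4778 CPM.

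The 3 chemokines differed by 4.85, 4.72 and 4.30 (SD over Cga-high wells 3.04, 2.96 and 3.69), and by 3.95, 3.39 and 4.28 within columns 1 to 3 and 7 to 9. All 3 differed by 3 or more both in wells under 1000000 counts (10 against 5) and in deeper wells (5 against 13). They were chosen by their difference over these same wells, so this is not an independent check. Of the macrophage markers, Csf1r was at 0 in all 33 wells, C1qa was at most 4.35 CPM in a Cga-high well and Ptprc was at 89.9 CPM (10 counts) in E7. The summed CPM of 6 macrophage markers had medians of 34.4 and 34.1 on the 2 sides, most of it Cd68. Summed CPM of 5 endothelial markers was 2041 in H7 and 0.49 in H3. In H7 only 1 of the 5 was detected, Emcn, at 4920 counts. Which cells the chemokine counts came from was not tested.

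Among the next genes, a few wells held most of the signal. S100a6, a calcium-binding protein, was at 14433 CPM in A10, 9047 CPM in H7, 6243 CPM in H3 and 4636 CPM in C7, against a Cga-high median of 76.5 CPM and a Cga-low maximum of 210 CPM. Lcn2, the iron-carrier scavenger lipocalin 2, reached 22123 CPM in A9 and 3105 CPM in H7, and 5228 CPM in the Cga-low well F11. Ifi27l2a, an interferon-induced gene, was high in E3 (4830 CPM), C7 (3711 CPM), H3 (1392 CPM) and H7 (1246 CPM), but also in F11 (1146 CPM). The differences of the 3 genes were 4.09, 3.17 and 3.40. In wells under 1000000 counts the difference of Ifi27l2a was 0.50, while in deeper wells it was 6.16.

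Another pair was detected in most Cga-high wells. Uts2, encoding the vasoactive peptide urotensin 2, had a Cga-high median of 80.3 CPM, and Rln3, encoding the neuropeptide relaxin 3, one of 51.4 CPM. In Cga-high wells Uts2 ran from 0.16 CPM in H2 to 201 CPM in A8 and Rln3 from 0.40 CPM in H2 to 402 CPM in D3. Uts2 was under 1 CPM in 12 of 18 Cga-low wells and Rln3 in 11, although single wells stood high, with 1510 CPM of Uts2 in D7 and 1511 CPM of Rln3 in E1. Their differences were 3.65 and 3.56 overall and 2.37 and 1.96 within the shared columns. Rln3 rested on 4 to 105 counts a well (median 16), and its CPM had a Spearman coefficient of -0.70 with gene counts over the 15 Cga-high wells. In wells of at least 1000000 counts the differences were 1.85 for Uts2 and 0.30 for Rln3, against 3.49 and 5.39 in shallower wells.

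Plate position moved with these genes too. Rln3 was detected in 6 of 8 Cga-low wells of columns 1 to 3 and 7 to 9 and in 1 of 10 Cga-low wells of the other columns, and Uts2 in 5 of 8 and 1 of 10. Ubox5, a ubiquitin ligase, Bcat2, the mitochondrial enzyme of branched-chain amino acid breakdown, and Wdr19, a subunit of ciliary transport, had differences of 3.34, 3.17 and 2.85 overall and 1.40, 2.11 and 0.59 in the deeper wells. Whether these counts belong to the wells in which they were found was not tested.

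Gm10800, Gm10801 and Gm21738 are predicted genes whose sequence is repeated in the genome, so the number of reads assigned to each is uncertain. They differed by 5.17, 4.12 and 4.06. Gm10800 was at 50992 CPM in B3 and 9410 CPM in D3, against a Cga-high median of 138 CPM and a Cga-low maximum of 99.4 CPM.

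**Figure D4:**
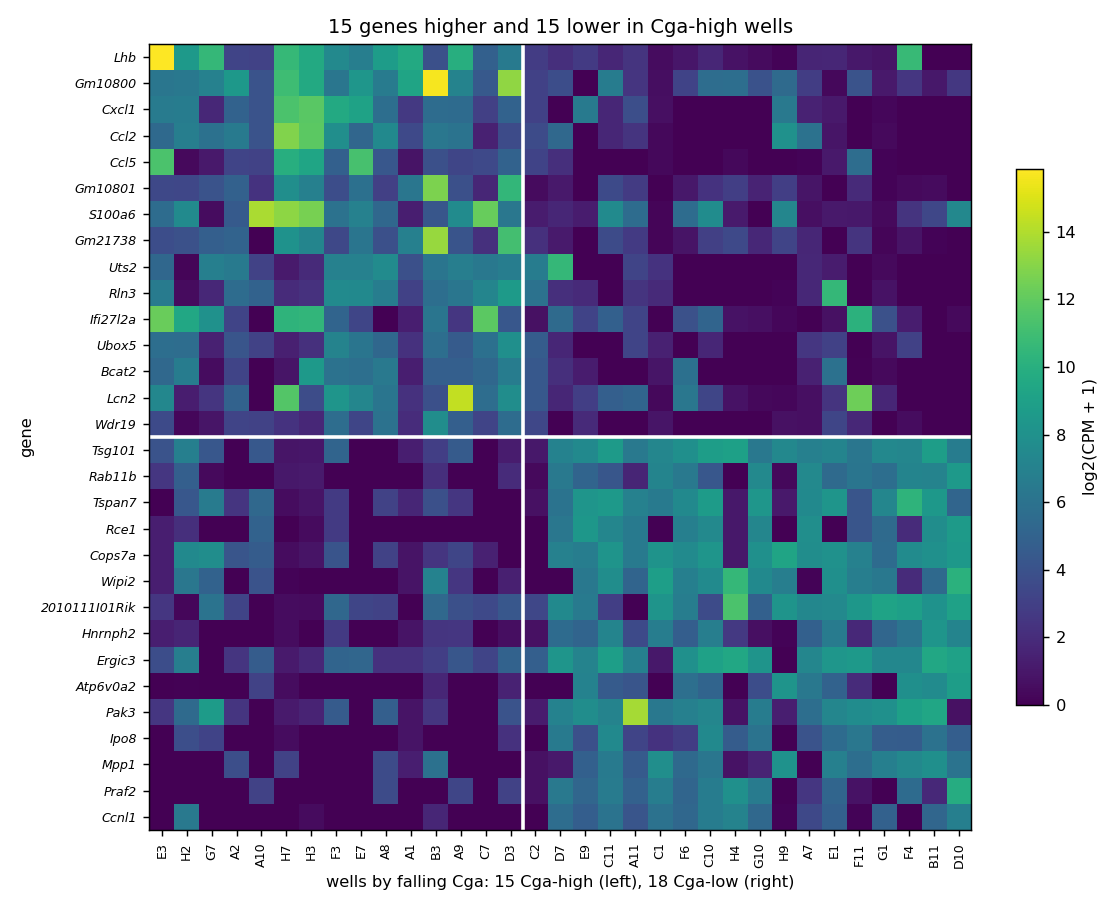
Rows are the 15 protein-coding genes with the largest positive and the 15 with the largest negative difference, columns are the 15 Cga-high wells (left) and 18 Cga-low wells (right) ordered by falling Cga, and colour is log2(CPM + 1). The genes were chosen on these wells, so the split is given by the choice. C2, the first Cga-low column, detected 13 of the upper 15 and 4 of the lower 15 genes.

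On the other side, the 15 genes with the largest negative differences ran from -4.68 to -3.68, and from -4.24 to -2.21 within columns 1 to 3 and 7 to 9. Tsg101, a subunit of the ESCRT-I sorting complex of endosomes, led them. Among the Cga-high wells it was at 0 in 4, had a mean log2(CPM + 1) of 2.44 ± 2.28 (SD, n = 15) and was highest in H2 (116 CPM). In Cga-low wells the mean was 7.12 ± 1.75 (SD, n = 18) with a median of 157 CPM, and 17 of 18 wells were at or above 74.7 CPM. The exception was C2 at 1.002 CPM, and without C2, a well chosen after its value was seen, 14 of 15 Cga-high wells lay below all the remaining Cga-low wells.

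Detection differed along with level in most of these genes. Rab11b, a recycling-endosome GTPase, was detected in 6 of 15 Cga-high and 15 of 18 Cga-low wells (difference -4.13). Wipi2, which acts at the forming autophagosome, was detected in 7 and 15 (-4.00), and Ergic3, a receptor of the early secretory route, in 14 and 17 with medians of 8.73 and 272 CPM (-3.79). Atp6v0a2, a subunit of the vesicular proton pump, was detected in 3 and 13 wells (-3.77) and Praf2, a prenylated Rab acceptor, in 4 and 14 (-3.72). Cops7a, a COP9 signalosome subunit, had medians of 4.47 and 211 CPM (-4.04).

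The others in that set had similar sizes. Tspan7, a tetraspanin, had medians of 4.35 and 169 CPM (-4.12), and Rce1, the protease of prenylated proteins, 0 and 85.1 CPM (-4.04). Hnrnph2 and Ccnl1, both linked to RNA splicing, differed by -3.82 and -3.68. Ipo8, a nuclear import receptor, Mpp1, a membrane scaffold protein, and Pak3, a kinase downstream of Rac and Cdc42, differed by -3.77, -3.73 and -3.77, and 2010111I01Rik by -3.97. In wells under 1000000 counts, 14 of the 15 differed by -2 or less, the exception being 2010111I01Rik at -0.66. In deeper wells 14 of 15 did, the exception being Pak3 at -1.92. The 15 genes were chosen on these same wells, so their direction in each depth group is largely given by the choice. Of all genes kept in the wells under 1000000 counts, 1784 of 6452 differed by -2 or less. In a well under 1000000 counts a single count already exceeds 1 CPM, so detection was not matched for depth.

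Among the Cga-low wells, C2 detected the fewest of the genes with negative differences just described. It held 1496919 gene counts, Cga at 18.0 CPM, just under the limit, and Prl at 776624 CPM. Of the 15 genes with the largest positive differences it detected 13, where the Cga-low wells had a median of 7 and the Cga-high wells one of 15. The Cga-low well D7 also detected 13 and A11 detected 12. Of the 15 genes with the largest negative differences C2 detected 4, where the medians were 14 and 7. Its Uts2, Rln3 and Ubox5 values were 98.2, 62.1 and 23.4 CPM.

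Gene lists were read beside the median of all genes, -0.63. Counted from 0 and not from that median, 6 of all the lists had a median of 1 or more in size. They were the hormone subunits, which include Cga (6.17), the oligosaccharyltransferase (-1.62) and the globin list (1.28). The others were nuclear receptors (-1.24), stem and folliculostellate markers (1.20) and hypothalamic and feedback receptors (1.05). The oligosaccharyltransferase, the complex that places N-glycans on subunits such as the glycoprotein hormones, had 9 of 10 subunits above the mean of 10 CPM, and all 9 were negative (median -1.62; -1.21 within the shared columns and -0.96 with TMM). Stt3a, a catalytic subunit, differed by -2.05 and Rpn2 by -2.35 (-0.88 within the shared columns), and the other 7 by less than 2. Of 15 genes of folding and stress in the endoplasmic reticulum, 14 were negative (median -0.82; -0.16 with TMM), with Calr at -2.50 and P4hb at -2.22, a lectin chaperone and a disulfide isomerase. None of either list passed the limit upwards, where 1.31% of all genes did and 10.1% passed it downwards.

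Lists of the secretory granule had medians near that of all genes on either scaling. Of 9 granins and granule proteins 8 were negative (median -0.89; -0.20 with TMM), and Nucb2, the precursor of nesfatin-1, passed the limit at -2.66. Of 9 prohormone-processing genes 8 were negative (median -0.82; -0.12 with TMM). Pam, the amidating enzyme, passed the limit at -2.34, while Furin, a protease of the trans-Golgi, stood at 1.86, with 499 CPM in B3 and 78.4 CPM in A10. Among 13 exocytosis genes kept (median -0.40; -0.03 with TMM), Syt5, a synaptotagmin of vesicle fusion, stood at -2.74 (-1.30 within the shared columns). The 6 house-keeping genes had a median of -0.91 (-0.21 with TMM), with Gapdh at -1.54 and Eef1a1 at -1.33.

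In GnRH signalling, 12 of 20 genes were kept and 9 were negative (median -0.84; -0.49 with TMM). Gnas, the stimulatory G-protein alpha subunit, stood at -2.36. Of 12 immediate-early genes 10 were negative (median -0.999; -0.39 with TMM), and Jund passed the limit at -2.43. The 4 kept genes of the activin, inhibin and BMP pathway had a median of -0.85 (-1.08 with TMM), with Smad4, the common partner of SMAD signalling, at -2.13. All 6 kept nuclear receptors were negative (median -1.24; -0.57 within the shared columns and -0.82 with TMM). Rarg, a retinoic acid receptor below the mean of 10 CPM, was detected in 10 of 15 Cga-high wells and 2 of 18 Cga-low wells, at most at 27.0 CPM and on no more than 7 counts a well.

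The sulphotransferase Chst8, which acts on the N-glycans of LH and TSH, was detected in 14 of 15 Cga-high wells (median 32.0 CPM) and 13 of 18 Cga-low wells (median 13.9 CPM). Its difference of 0.78 was smaller than the SD over wells. B4galnt3, which acts before it, was at 149 CPM in D3 and at 0 in every other well of both sides.

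Of the remaining lists, the transcription factors of gonadotropes and thyrotropes had 6 of 17 genes kept and a median of -0.33, and the terminal glycosylation genes 3 of 8 and 0.31 (-0.03 with TPM). Lactotrope, somatotrope and corticotrope or melanotrope markers had medians of 0.47, 0.10 and -0.12 over 2, 3 and 5 genes kept, and all 3 had the other sign within the shared columns (-0.56, -0.04 and 0.58). The last 2 also turned with TPM (-0.30) and TMM (0.09). Of 11 hypothalamic and feedback receptors, Gnrhr and Adcyap1r1 were kept. Adcyap1r1, the receptor of the peptide PACAP, was at 319 CPM in H2, 26.9 CPM in H3, 4.35 CPM in A2 and 2.23 CPM in B3, and at 0 in all 18 Cga-low wells, with a difference of 1.15.

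**Figure D5:**
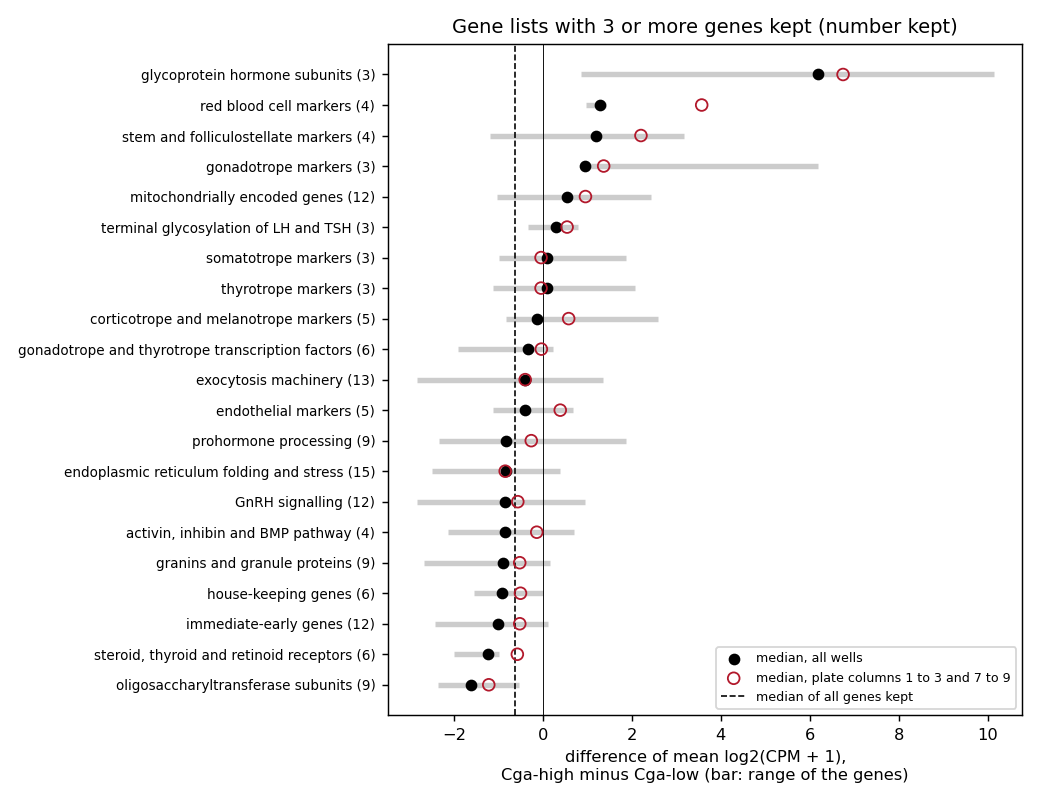
Each row is a gene list with 3 or more genes kept, the horizontal axis is the difference of mean log2(CPM + 1) between Cga-high and Cga-low wells, filled points are list medians over all 33 wells, open points are medians within columns 1 to 3 and 7 to 9 (14 against 8 wells), bars span the genes of a list over all wells, and the dashed line is the median of all 7611 genes (-0.63). The oligosaccharyltransferase list lay lowest (-1.62) and the hormone subunits, which include Cga, highest.

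Markers of other cells moved with the sides in part. The 4 globin genes kept had a median difference of 1.28 overall and 3.57 within the shared columns, while their Cga-low values reached 44535 CPM for Hbb-bs, and Alas2, which is specific to red cells, was at 0 in all Cga-high wells. Mitochondrially encoded genes had a median of 0.54, with mt-Co2 at 2.43 (medians 811 and 100 CPM), and their share of counts had medians of 0.744% and 0.173%. Of 10 stem and folliculostellate markers 4 were kept (median 1.20). Lcn2 and Mia passed the limit, Mia at 2.74 with 430 CPM in H7, and Vim (-1.19; 1.64 within the shared columns) and Aldoc (-0.33) were negative, while Sox2 was at 0 in all 33 wells and S100b was in B3 alone, at 55.9 CPM. Endothelial (5 kept), stromal (2 kept) and proliferation (2 kept) markers had medians of -0.41, -0.20 and -0.39, the first being 0.39 within the shared columns and the last 2 being 0.29 and 0.76 with TMM, and no posterior lobe marker was kept. The part of such cells in the differences was not tested.

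The genes whose CPM followed Cga most closely over all 46 wells were Lhb (Spearman 0.69), Cxcl1 (0.64), Ccl2 (0.62), Gm10801 (0.62), Gm10800 (0.62), Ccl5 (0.60), Shc1, an adaptor of receptor signalling (0.58), Wdr19 (0.57), Mia (0.57) and Dio2 (0.56). These coefficients describe the wells and share their libraries, depth and plate. Within columns 1 to 3 and 7 to 9 (29 wells) the value was 0.83 for Lhb and 0.33 for Wdr19. In the 25 wells of at least 1000000 gene counts it was 0.43 for Lhb and 0.74 for Dio2. Dio2 had the weakest relation of the 10 with the spike-in share (0.09).

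The 13 wells between the limits lay between the sides for Lhb, with a median of 10.3 CPM and a maximum of 116 CPM in F12. The 2 nearest the upper limit differed in kind. C9 (Cga 610 CPM) held Gh at 307675 CPM, Dio2 at 1129 CPM and Lhb at 10.3 CPM, and H11 (Cga 640 CPM) held Pou1f1 at 695 CPM with Lhb at 0.17 CPM. Fshb was at 0 in all 13 wells, which allows a share of up to 23.1%.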

How the data were processed

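RNA was measured in 56 single-cell libraries of 1 pooled pituitary culture. Per the labels, reads were aligned with STAR 2.5.1b to mm10 and counted with featureCounts 1.5.0-p1; the study's methods name GENCODE release M8 for its bulk libraries, and the release used for these single cells, the strand setting and the handling of multi-mapping reads are not given in the sources used here. The deposited table holds estimated counts, as the authors made them: 33.5% of the values above 0 are not whole, within a tolerance of 1e-09. It has 47069 gene rows and 92 spike-in rows. Symbols came from GENCODE M21 for 46574 IDs, and 495 IDs kept their identifier.

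Spike-in rows were removed, CPM was computed over gene rows, and wells of at least 100000 gene counts were sorted by Cga at 1000 and 20 CPM. The members and gene lists were chosen with earlier results of these data known. Genes with a mean of at least 10 CPM over the wells compared were kept, and the difference of mean log2(CPM + 1) was called at 2. Since the wells are 1 sample, no model or p-value was computed. Intervals are exact Clopper-Pearson intervals at 95% and, like the limit of 3 counts for a 0, cover counting error only; reads carry no molecular identifiers.

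Named genes were those of the lists and, beyond them, protein-coding kept genes that are neither mitochondrial nor Cga: the 15 largest positive and 15 largest negative differences, detected at 1 CPM in at least 50% of the wells of the higher side; 10 each way between carriers and wells with Cga alone, of which the text gives a part; and the 10 highest Spearman coefficients with Cga. A condition that a gene keep its sign in both sets of plate columns was not applied, since 1 set held 1 Cga-high well. Ruvbl2, Platr9 and Tspan2 were named beyond the rule, as overlapping transcripts. Per-length values divide counts by the union of exons. Alternatives covered pseudocount, filters, TMM scaling, totals without Prl, Gh and Pomc, TPM, thinning, medians, depth, plate columns and leaving out single wells. Wells C10 and C11 were near-identical in genes and not in spike-ins, and both were kept. The scripts ran in Python 3.11.15 (pandas, numpy, scipy) and R 4.3.3 with edgeR 4.0.16 for TMM factors. The calculation of the difference was run on simulated counts with the depths of these wells. The simulation held no effect of plate or spike-in share, so it checks the calculation and not the genes called. Some genes of the lists are not reported here.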

Additional observations from a re-analysis of the deposited data

Results flagged for a closer look

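Data outside the comparison held the same genes. Among the 10 wells under 100000 gene counts, which no comparison used, Cga stood above the upper limit in 3. D5 held 6220 CPM (296 of 47588 counts), H10 4149 CPM (7 of 1687 counts) and D4 3236 CPM (80 of 24726 counts), and none of the 3 held an Lhb count. All 3 stand in the plate columns that held 1 Cga-high well, A10, which had Cga with 1 count of Lhb. Among the wells between the limits, Tshb was at 38.3 CPM (41 counts) in C8 and 32.4 CPM (121 counts) in H12, above the Cga-low maximum, with 1 Lhb count in each. These wells were flagged because they lay outside the comparison of Cga-high with Cga-low wells. The Cga-high and Cga-low sides held more than 10 wells each, so single wells were not tested as outliers. No difference between groups under a shared contrast was formed.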

How the results depend on the processing

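The number of genes higher in Cga-high wells (100) became 395 and 15 with pseudocounts of 0.1 and 10, 28 with a mean of at least 100 CPM, 192 with TMM, 53 with TPM, 474 with medians, 571 and 15 with limits of 1 and 3, 153 and 241 within columns 1 to 3 and 7 to 9 and within the others, 151 without spike-in shares above 30%, 161 with carriers only, and 355 and 252 in wells under and from 1000000 counts, the last pair chosen after seeing the data. The number lower (771) became 1564 and 99, 153, 338, 1584 (medians), 2836 and 89 (limits), 3651 (other columns) and 1784 (under 1000000 counts). Lists with a median of 1 or more in size (6) became 2 with a pseudocount of 10, 3 with no filter, 10 with TPM, 11 in wells of at least 500000 counts, 13 with medians, 22 in the other columns, and 16 and 11 in shallow and deep wells. A minimum of 500000 counts left 7 Cga-high wells, and without Lhb 5 wells were carriers. Genes higher in carriers, 1360 of 6233, became 400 at 100 CPM and 2575 and 249 with pseudocounts of 0.1 and 10. Those lower, 109 of 6233, became 380, 251 and 70, with 401 of 6440 under TMM and 194 of 6320 after thinning. The limit of 1 CPM left no well with Cga alone. Leaving out single wells gave 89 to 141 genes higher, 669 to 998 lower, 6 to 9 lists, 1189 to 2336 higher in carriers and 106 to 336 lower. Within the other columns, where A10 stood alone, the differences of Gm21738 (-1.89), Ifi27l2a (-3.05), Bcat2 (-0.59), Lcn2 (-3.30) and Rarg (-0.24) changed sign. The causes were not tested. Of the named genes' other values, 35 moved by more than the SD over wells and 3173 did not. No paired analysis was possible because all wells are 1 group and their numbers only name them. Depth sets a floor: 1 count was worth up to 8.99 CPM in a Cga-high well.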

Other observations

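Ccnb1, the cyclin of entry into mitosis, was below the mean of 10 CPM and detected in 8 of 15 Cga-high and 3 of 18 Cga-low wells. It was at 85.4 CPM in A8, 73.2 CPM in A9 and 61.0 CPM in A2. The Cga-low detections were in 3 of 8 wells of columns 1 to 3 and 7 to 9 and 0 of 10 of the others. Well D2, between the limits, held far more Ccnb1, 25227 counts. Mki67 was under 1 CPM in all 33 wells. Mapk3, the kinase ERK1, was at 3112 CPM in E3 and at 0 in the other 14 Cga-high wells. Unc13a, a priming factor of vesicle fusion, was at 5289 CPM in A1, 988 CPM in A9 and 292 CPM in A8. Pdia6, a disulfide isomerase, was at 22418 CPM in A10, where the Cga-high median was 172 CPM. These genes were picked after their values were seen.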
